A study of Mus musculus with 12 samples.

Results

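The genes of fibroblast growth factor (FGF) ligands and their receptors were followed in cultured stromal fibroblasts of the mouse intestine that received TGFB1 or vehicle. The 9 genes were taken by symbol from the 25203 genes of the deposited table: the ligand genes Fgf1, Fgf2, Fgf7, Fgf9, Fgf10, Fgf18 and Fgf21, and the receptor genes Fgfr1 and Fgfr2. The 12 RNA-seq libraries formed 4 groups of 3, all from primary cells named Pdgfra-lo-H2B-GFP, a name for weak nuclear fluorescence of a reporter of Pdgfra, the platelet-derived growth factor receptor gene that marks these fibroblasts. The group Vehicle is the control of the group TGFB1, which received the exogenous ligand, and neither is labelled knockout. The groups Vehicle_Tgfbr2KO and TGFB1_KO are cells labelled as knockout for Tgfbr2, the gene of the type 2 TGF-beta receptor, with the same additions. They were used by the study to look for responses to TGFB1 outside its canonical receptor. Mouse age, strain, the agent that removed Tgfbr2, the deleted part of the gene, the dose and the exposure time are not given in the sources used here. Whether libraries of the same group stem from different animals or cultures is not stated, so p-values measure the spread between these libraries, which may be technical.

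FGF ligands are secreted proteins that bind receptor tyrosine kinases together with heparan sulphate chains on the cell surface. The bound receptor signals through adaptor proteins to RAS and the ERK kinases, which turn on feedback inhibitors such as the Sprouty proteins and the dual-specificity phosphatases. FGF7 and FGF10 are made by mesenchyme and act on a splice form of FGFR2 that epithelial cells carry, so in the gut they pass signals from stroma to epithelium. FGF2 binds several receptors, FGFR1 of mesenchymal cells among them. FGF21 belongs to the endocrine FGFs, which bind heparan sulphate weakly and need a Klotho protein as co-receptor. FGFR2 exists in an epithelial and a mesenchymal splice form, which a value per gene does not separate.

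Promoter stretches are shown for the 4 ligand genes that passed the test of TGFB1 against Vehicle. Each is the 250 bases before the gene start in RefSeq (mouse build GRCm38.p6), read 5′ to 3′ on the strand of the gene. RefSeq promoters matched 7 of the 9 genes. Capitals mark matches, on either strand, to letters searched for a SMAD box (CAGAC), an ATF4 composite element (TGATGNAA), an AP-1 site (TGANTCA), a TEAD site (GGAATG) and a TATA box (TATAAA).
Fgf21, chr7:45615491-45615740, minus strand: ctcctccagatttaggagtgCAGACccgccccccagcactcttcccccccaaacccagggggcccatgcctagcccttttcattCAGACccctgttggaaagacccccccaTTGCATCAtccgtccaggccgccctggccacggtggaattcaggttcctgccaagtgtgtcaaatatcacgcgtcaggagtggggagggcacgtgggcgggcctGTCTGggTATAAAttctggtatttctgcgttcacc
Fgf10, chr13:118714449-118714698, plus strand: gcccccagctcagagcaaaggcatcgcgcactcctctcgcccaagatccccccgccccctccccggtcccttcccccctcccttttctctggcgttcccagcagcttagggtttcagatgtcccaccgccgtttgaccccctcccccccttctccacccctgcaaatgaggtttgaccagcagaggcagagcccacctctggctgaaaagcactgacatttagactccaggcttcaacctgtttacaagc
Fgf7, chr2:126034408-126034657, plus strand: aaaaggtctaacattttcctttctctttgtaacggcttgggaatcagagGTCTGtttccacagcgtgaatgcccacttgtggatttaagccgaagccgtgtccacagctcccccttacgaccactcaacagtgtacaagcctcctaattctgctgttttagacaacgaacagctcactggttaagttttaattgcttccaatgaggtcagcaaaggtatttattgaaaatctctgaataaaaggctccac
Fgf2, chr3:37348403-37348652, plus strand: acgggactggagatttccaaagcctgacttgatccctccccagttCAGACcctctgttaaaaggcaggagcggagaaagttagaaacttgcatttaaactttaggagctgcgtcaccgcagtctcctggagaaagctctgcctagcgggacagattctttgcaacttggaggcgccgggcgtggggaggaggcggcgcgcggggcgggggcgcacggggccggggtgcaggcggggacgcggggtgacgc
The Fgf21 stretch held 3 SMAD boxes, starting 230, 166 and 35 bases before the gene start. It also held the letters TTGCATCA, an ATF4 composite element on the other strand, 139 bases before the start, and a TATA box 28 bases before it. The Fgf2 and Fgf7 stretches held 1 SMAD box each, 205 and 201 bases before the start, and the Fgf10 stretch held no match to any of the 5 motifs. Among 32536 mouse promoters of this length, 42.2% held a SMAD box and 2.33% held at least 3. The ATF4 composite element was in 3.4% of them, the TATA box in 12.3%, the TEAD site in 12.6% and the AP-1 site in 6.73%. None of the matches in these 4 stretches overlapped another. They are matches of letters only and were not tested for binding.

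Values are FPKM, fragments per length of transcript and per number of mapped fragments, so levels are given per length and can be set beside each other between genes. The deposited values of a library summed to between 498669 and 569510. Low values placed relative depth at 0.962 to 1.05 in Vehicle, 0.745 to 0.799 in TGFB1, 0.862 to 1.02 in Vehicle_Tgfbr2KO and 0.804 to 1.25 in TGFB1_KO, with Vehicle replicate 1 as 1. The TGFB1 libraries stood apart from the other 9 on the first principal component. Tgfbr2 itself was read at 38.2 to 78.8 FPKM in Vehicle, 56.5 to 74.6 in TGFB1, 27.0 to 41.9 in Vehicle_Tgfbr2KO and 31.6 to 62.4 in TGFB1_KO, and these ranges overlapped in part. A value for the whole gene is no check of a deletion of which the extent is unknown. All 8 fibroblast markers passed the filter, and their sum was 5154 to 8526 FPKM in Vehicle and 8104 to 8873 in TGFB1, which overlapped. In the Tgfbr2KO groups the sum was lower, at 2882 to 4022 FPKM in Vehicle_Tgfbr2KO and 3629 to 6633 in TGFB1_KO. Neither range overlapped that of the group with the same addition not labelled knockout. In mean level, Col1a1 was 2864 FPKM in Vehicle and 1190 in Vehicle_Tgfbr2KO, Col1a2 1550 and 588, and Dcn 557 and 256. In the same order Pdgfra was 142 and 74.5 FPKM, Pdgfrb 63.8 and 54.9, Lum 17.9 and 6.80, Thy1 158 and 150, and Vim 1186 and 1281. None of the 8 passed the test between these groups. Of these 8 markers, between Vehicle and TGFB1, Pdgfra fell from 142 ± 20.7 to 15.2 ± 4.01 FPKM (SD, n = 3). Vim rose from 1186 to 1836 FPKM in mean level, and the other 6 did not pass the test. The summed level of 5 smooth muscle markers, all of them measured above the filter, ran from 1956 to 2438 FPKM in Vehicle and from 2895 to 3234 in TGFB1. Most of this sum was Actg2, at 1564 FPKM in mean level in Vehicle and 2260 in TGFB1. Actg2 and Cnn1 rose and passed the test, whereas Myh11, Des and Synpo2 did not pass. For 5 mesothelial markers, of which Krt19 alone passed the filter, the sum ran from 5.63 to 8.51 in Vehicle and from 1.60 to 3.53 in TGFB1. The 5 macrophage markers summed to 28.0 to 581 FPKM in Vehicle and 9.96 to 271 in TGFB1, which overlapped. No marker of any list was at 0 in every library. The 6 epithelial markers, of which 1 passed the filter, summed to 0.739 to 1.41 FPKM in Vehicle and to 1.61 to 3.38 in TGFB1, without overlap. Replicate 1 of each Tgfbr2KO group stood apart in this sum, at 51.2 FPKM in Vehicle_Tgfbr2KO and 20.0 in TGFB1_KO, against 1.16 to 2.14 in the other 4 Tgfbr2KO libraries. In Vehicle_Tgfbr2KO, Krt8 and Krt18 reached 25.8 and 21.8 FPKM and Epcam 1.02. The mesothelial sum of replicate 1 was 19.5 FPKM in Vehicle_Tgfbr2KO, against 7.14 and 9.85 in replicates 2 and 3. In TGFB1_KO it was 10.7, against 7.15 and 6.33. Without either of these replicate 1 libraries, 0 members passed in the comparison of TGFB1_KO with Vehicle_Tgfbr2KO, as with them. Relative depth and the smooth muscle, mesothelial and epithelial sums thus moved with the TGFB1 group, and their part in the results was not tested. The fibroblast sum was lower in the Tgfbr2KO groups, and its part in the comparisons between genotypes was not tested. In bulk RNA, fewer cells of a type and less RNA per cell cannot be told apart.

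**Figure D1:**
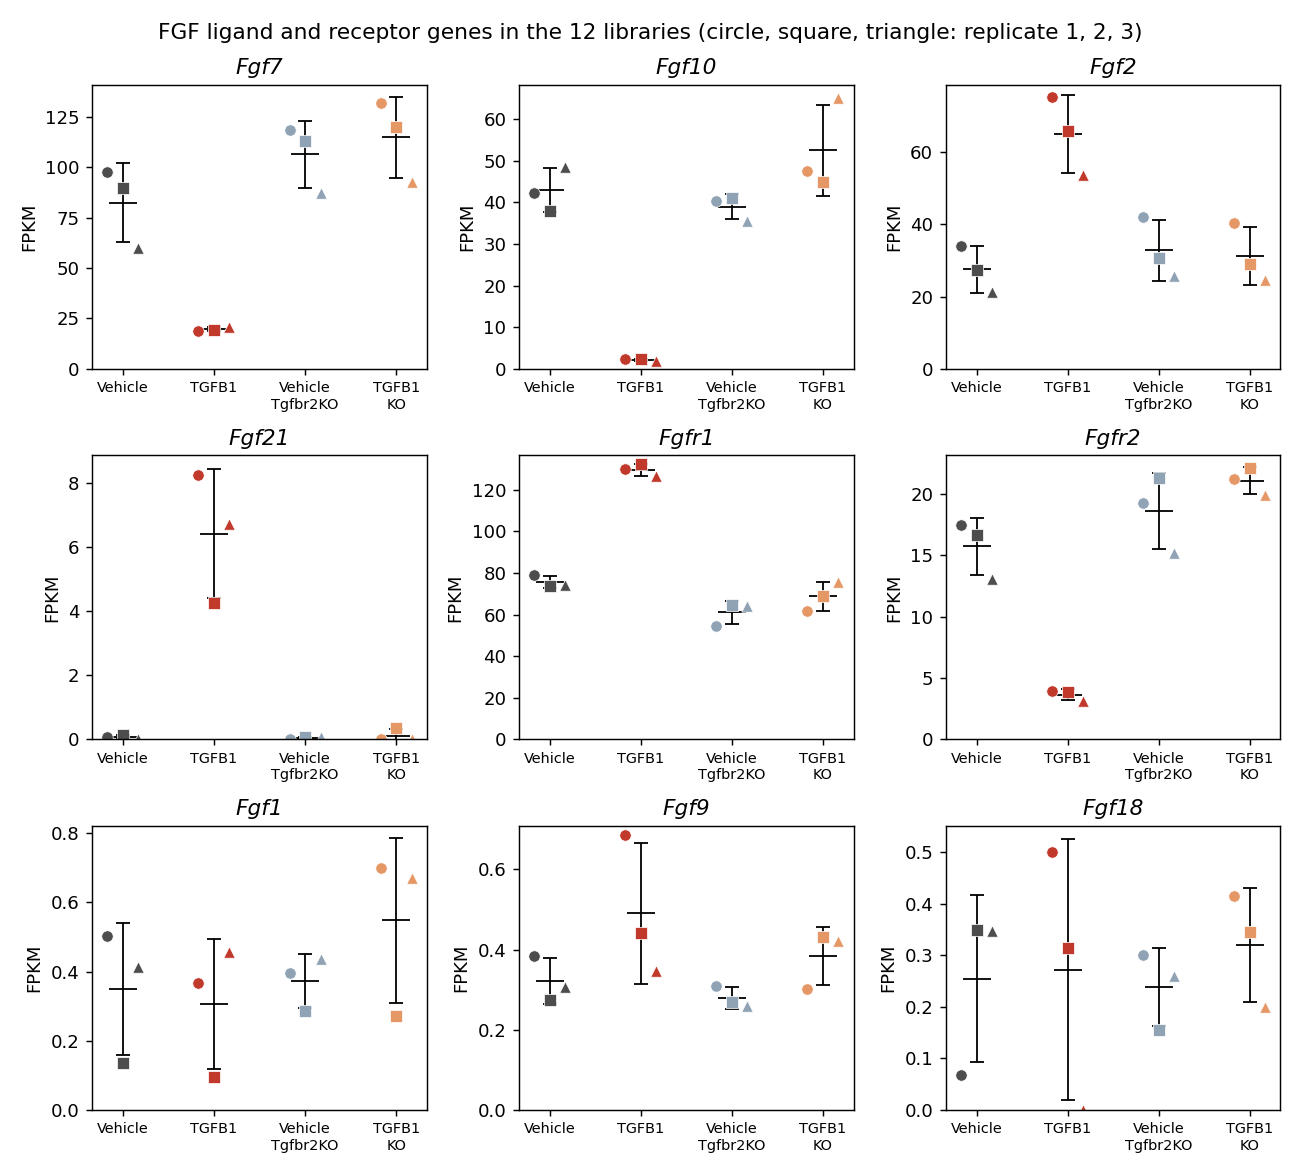
FPKM (linear axis from 0, a scale of its own in each panel) of the 9 FGF genes in the 4 groups; each point is a library, the long bar is the group mean and the whiskers are 1 SD over 3 libraries. The TGFB1 libraries lie below all others for Fgf7, Fgf10 and Fgfr2 and above all others for Fgf2, Fgf21 and Fgfr1, while Fgf1, Fgf9 and Fgf18 stay below 1 FPKM.

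Adding TGFB1 to cells not labelled knockout was followed by lower transcript levels of the ligands that act on epithelium and of Fgfr2, and by higher levels of Fgf2, Fgf21 and Fgfr1. Of the 9 genes, 6 passed the filter of at least 1 FPKM in at least 3 libraries and were tested. All 6 changed in the comparison of TGFB1 with Vehicle, 3 higher and 3 lower (limma, adjusted p under 0.05). Fgf21 passed the filter only through the TGFB1 group, so it had to differ, and without it the count is 5 of 5, 2 higher and 3 lower. Of all 12641 genes tested, 31.9% changed, 17.3% higher and 14.6% lower. The 9 genes and the gene lists below were chosen with earlier results of these data known. Shares over all tested genes are therefore a reference for the counts and no test of them. No library of the TGFB1 group overlapped the Vehicle group for any of the 6, which was so for 47.9% of all tested genes. Log2 changes below are on the scale log2(FPKM + 1), which understates the change of low genes, and folds are ratios of mean FPKM.

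Fgf10, the mesenchymal ligand needed for epithelial budding in several organs, showed the largest change of the 6 on the log2(FPKM + 1) scale. In the order of replicates 1, 2 and 3, which is kept below, its level in Vehicle was 42.2, 38.0 and 48.5 FPKM, and its level in TGFB1 was 2.26, 2.37 and 1.76 FPKM. The groups lay far apart, and the highest TGFB1 library was well below the lowest Vehicle library. Fgf10 fell 20.1-fold in mean level, which is -3.81 in log2 (SE 0.14, limma adjusted p = 1.58e-07), lower in each of the 3 replicate numbers.

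Fgf7, also called keratinocyte growth factor, was the most abundant ligand transcript without TGFB1. The Vehicle libraries held 97.5, 89.5 and 60.1 FPKM, and the TGFB1 libraries 18.9, 19.1 and 20.8 FPKM. Vehicle libraries were spread, with replicate 3 the lowest, whereas the TGFB1 libraries lay close together, at 19.6 ± 1.06 FPKM (SD, n = 3). Fgf7 fell 4.20-fold (log2 -1.99, SE 0.19, limma adjusted p = 4.77e-05). The ratio of Fgf7 to Fgf10 levels was 2.31, 2.36 and 1.24 in Vehicle and 8.35, 8.05 and 11.9 in TGFB1. Both epithelial ligands were thus lower, with a ratio above that of any Vehicle library in each TGFB1 library. The exact two-sided permutation test of the ratio gave p = 0.1 (n = 3 against 3), the smallest that this design allows (adjusted 0.178 over 16 such tests of ratios and sums).

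Fgf2, basic FGF, which has no classical secretion signal and is held on matrix heparan sulphate, moved the other way. With vehicle it stood at 34.0, 27.3 and 21.1 FPKM, and with TGFB1 at 75.4, 65.9 and 53.7 FPKM. All TGFB1 libraries were above all Vehicle libraries, and in each of the 4 groups replicate 1 was the highest and replicate 3 the lowest. Fgf2 rose 2.36-fold (log2 1.22, SE 0.24, limma adjusted p = 0.00320). The gene overlaps Nudt6, a Nudix hydrolase gene on the opposite strand, in RefSeq. Nudt6 was 20.0, 16.2 and 14.0 FPKM in Vehicle and 36.6, 34.6 and 32.2 FPKM in TGFB1 (log2 1.01, SE 0.16, limma adjusted p = 0.00106). Levels of the overlapping pair were therefore higher together: the ratio of Fgf2 to Nudt6 was 1.51 to 1.70 in Vehicle and 1.67 to 2.06 in TGFB1 (exact two-sided permutation p = 0.3, n = 3 against 3, unpaired). Within each of the 3 replicate numbers the ratio was higher with TGFB1, at 2.06 against 1.70, 1.90 against 1.69 and 1.67 against 1.51. Whether the reads were assigned by strand is not stated, so reads from sequence that the 2 genes share may not be told apart. How much transcript sequence they share was not determined, and the change of Fgf2 is uncertain to that extent. Overlapping genes of other members were low: Fam227b at Fgf7 reached 0.186 FPKM at most, Gm16159 at Fgfr1 1.74, and Arhgap26 and Gm5820 at Fgf1 2.32 and 0.376.

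Fgf21, a stress-induced hormone best known from liver, was close to 0 in every library outside the TGFB1 group. The table lists 0.0633, 0.120 and 0 FPKM for the Vehicle libraries, and 8.27, 4.27 and 6.73 FPKM for the TGFB1 libraries. The other 6 libraries lay between 0 and 0.346 FPKM, below every TGFB1 library. Fgf21 rose by a log2 of 2.77 (SE 0.20, limma adjusted p = 1.00e-05), or 5.36 (SE 0.69, adjusted p = 0.000302) with a pseudocount of 0.1 in place of 1, where it exceeded the change of Fgf10 in size. Its change is a description, since it entered the test through the group where it is high. A filter of 5 FPKM leaves it out of the test. Its usual co-receptor gene Klb, which encodes beta-Klotho, was at or below 0.0482 FPKM in all 12 libraries.

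Fgf1, Fgf9 and Fgf18 stayed below 1 FPKM in every library and were not tested. Fgf1, acidic FGF, ranged from 0.134 to 0.502 FPKM in Vehicle and from 0.0939 to 0.457 in TGFB1. Levels of Fgf9, a ligand of mesenchymal receptors that epithelium and mesothelium make in development, were 0.273 to 0.384 FPKM and 0.346 to 0.687 FPKM. Fgf18, a ligand best known in the skeleton and lung, ranged from 0.0668 to 0.350 FPKM and from 0 to 0.501 FPKM. The 2 groups overlapped for all 3 genes. Without the filter, over 20501 genes, the limma adjusted p was 0.908 for Fgf1, 0.177 for Fgf9 and 1 for Fgf18, so no difference was detectable at these low levels.

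The 2 receptor genes went in opposite directions. The level of Fgfr1 was 78.9, 73.9 and 74.1 FPKM with vehicle, against 130.1, 132.5 and 126.7 FPKM with TGFB1. Libraries of a group lay close together and the groups were well apart. Fgfr1 rose 1.72-fold (log2 0.77, SE 0.08, limma adjusted p = 0.000103). Fgfr2 was 17.5, 16.6 and 13.1 FPKM in Vehicle and 3.96, 3.88 and 3.10 FPKM in TGFB1, again with no overlap. Fgfr2 fell 4.32-fold (log2 -1.84, SE 0.14, limma adjusted p = 1.03e-05). The ratio of Fgfr1 to Fgfr2 levels was accordingly 4.51, 4.45 and 5.67 in the Vehicle libraries, against 32.9, 34.2 and 40.9 in the TGFB1 libraries. The exact two-sided permutation test of the ratio gave p = 0.1 (n = 3 against 3), the smallest possible, and 0.178 after adjustment over the 16 tests.

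**Figure D2:**
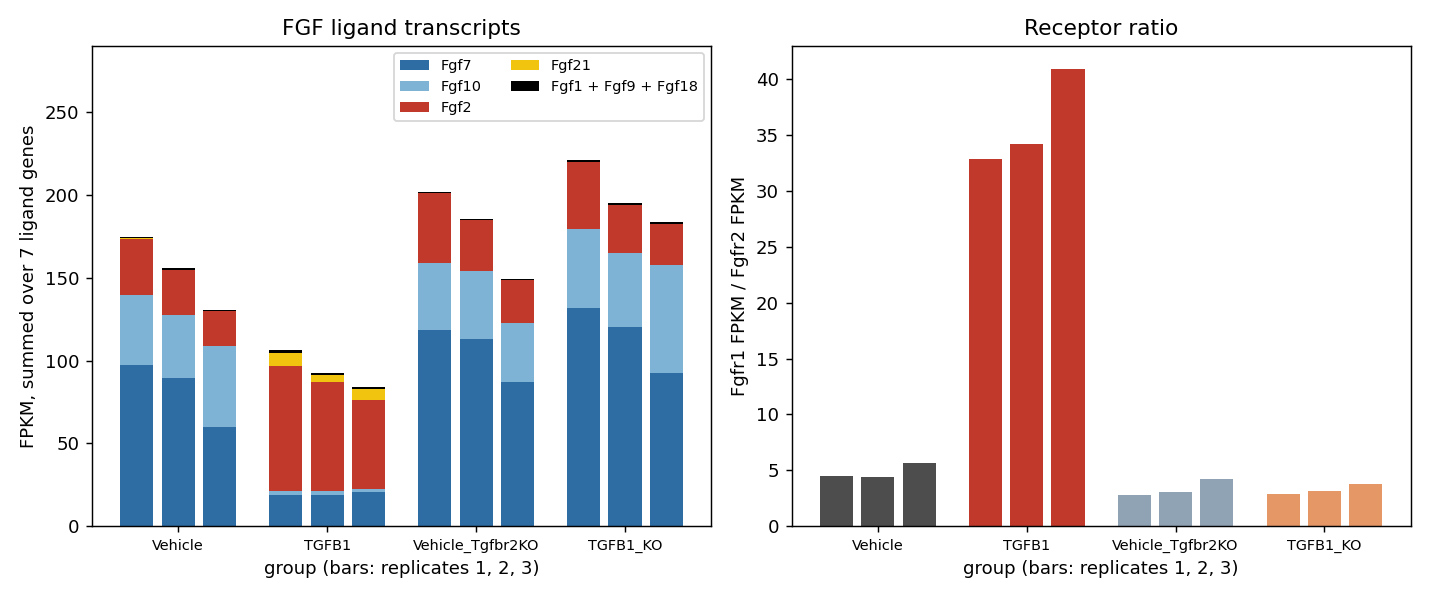
Left, FPKM of the 7 ligand genes stacked for each of the 12 libraries (bars start at 0); right, the ratio of Fgfr1 FPKM to Fgfr2 FPKM in the same libraries, with 1 bar per library and no error bars. Fgf2 makes up most of the stack in the 3 TGFB1 libraries and Fgf7 the largest part in the other 9, and the ratio is above 32 in the TGFB1 libraries and below 6 elsewhere.

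Summed over the 7 ligand genes, FPKM was 131 to 175 in Vehicle and 83.8 to 106 in TGFB1, and the order of the ligands differed between the groups. Fgf7 made up 45.9% to 57.5% of the sum in Vehicle and 17.8% to 24.8% in TGFB1. The share of Fgf10 was 24.2% to 37.1% in Vehicle and 2.10% to 2.56% in TGFB1. By contrast, Fgf2 held 16.2% to 19.5% in Vehicle and 64.1% to 71.3% in TGFB1, and Fgf21 held 4.62% to 8.03% in TGFB1. Ordered by mean level over all 9 genes, Vehicle had Fgf7 and Fgfr1 first, with ranges that overlapped, then Fgf10, Fgf2 and Fgfr2, with no overlap between neighbours. In TGFB1 the order was Fgfr1, Fgf2, Fgf7, Fgf21, Fgfr2 and Fgf10, again with no overlap between neighbours. Vehicle_Tgfbr2KO had Fgf7, Fgfr1, Fgf10, Fgf2 and Fgfr2, and of neighbours in this order only Fgf10 and Fgf2 overlapped. TGFB1_KO had the same order, with Fgfr1 and Fgf10 as the only neighbours that overlapped. The remaining genes were below 1 FPKM in each group, and neighbours among them overlapped except Fgf18 and Fgf21 in Vehicle_Tgfbr2KO. These sums rest on transcripts and say nothing of secreted protein.

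In cells labelled Tgfbr2KO, none of the 6 tested FGF genes passed the threshold when TGFB1 was added. None of the 12641 tested genes did so in this comparison of TGFB1_KO with Vehicle_Tgfbr2KO (limma, 0%), although 748 genes, 5.92%, had an unadjusted p under 0.05. Fgf7 was 119, 113 and 87.4 FPKM in Vehicle_Tgfbr2KO, and 132, 120.0 and 92.8 FPKM in TGFB1_KO. Those ranges overlapped, and the log2 difference was 0.11 with a 95% interval from -0.31 to 0.53 (limma adjusted p = 0.861). Within each of the 3 replicate numbers Fgf7 was higher with TGFB1. Fgf2 was 42.1, 30.8 and 25.6 FPKM without and 40.3, 28.9 and 24.6 FPKM with TGFB1, a log2 difference of -0.07 (interval -0.59 to 0.46). It was lower with TGFB1 in each replicate number, and the intervals given here come from a fit that leaves the replicate number out. Fgf21 was at 0, 0.0722 and 0.0608 FPKM without and at 0, 0.346 and 0 with TGFB1, too low for a difference to be read.

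Receptor levels were close as well. Fgfr1 was 54.4, 64.6 and 64.2 FPKM in Vehicle_Tgfbr2KO and 61.9, 68.9 and 75.9 FPKM in TGFB1_KO (log2 0.17, interval -0.01 to 0.36, limma adjusted p = 0.738). Fgfr2 was 19.3, 21.3 and 15.2 FPKM and 21.2, 22.1 and 19.9 FPKM (log2 0.18, interval -0.12 to 0.49, limma adjusted p = 0.743). Both receptor genes overlapped between the groups, and the ratio of Fgfr1 to Fgfr2 was 2.83 to 4.22 without and 2.92 to 3.80 with TGFB1. Each receptor gene was higher with TGFB1 in each replicate number. Fgf10 was the only member whose groups did not overlap, as did those of 11.8% of all tested genes. It was 40.3, 41.1 and 35.6 FPKM in Vehicle_Tgfbr2KO and 47.6, 44.8 and 65.1 FPKM in TGFB1_KO, a log2 difference of 0.40 (SE 0.14, interval 0.09 to 0.72). This direction is opposite to that in cells not labelled knockout, but its unadjusted p of 0.0178 became a limma adjusted p of 0.738 and did not pass the threshold.

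**Figure D3:**
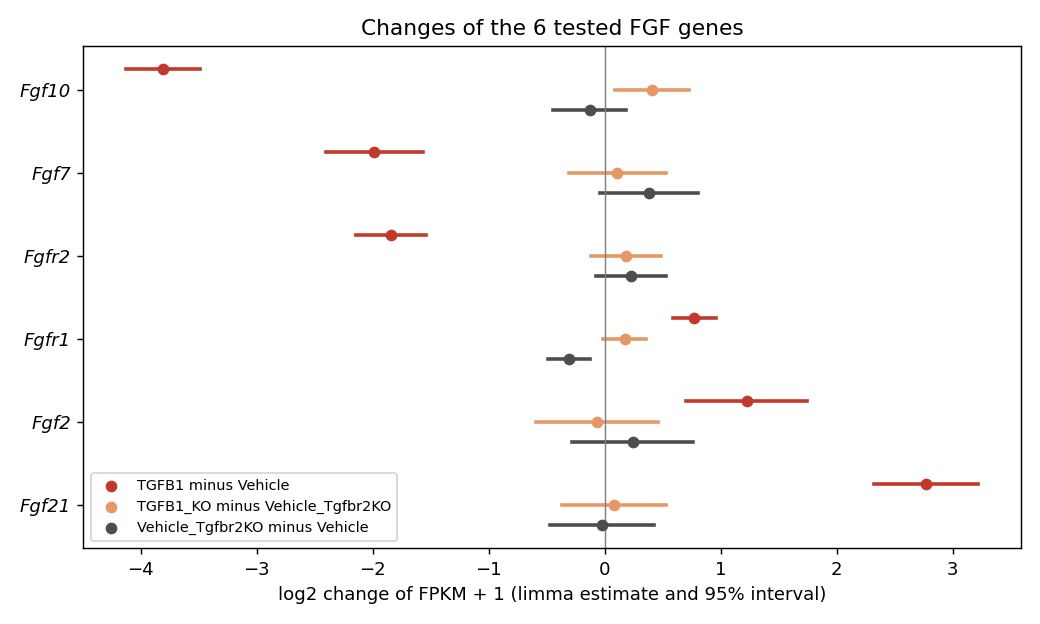
Log2 change of FPKM + 1 of the 6 tested FGF genes (points, limma estimate; lines, 95% interval) in 3 comparisons: TGFB1 minus Vehicle, TGFB1_KO minus Vehicle_Tgfbr2KO and Vehicle_Tgfbr2KO minus Vehicle. Estimates run from -3.81 for Fgf10 to 2.77 for Fgf21 in cells not labelled knockout, and lie between -0.31 and 0.40 in the other comparisons.

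The difference between these responses was tested directly, as the TGFB1 change in Tgfbr2KO cells minus that in the other cells. All 6 tested FGF genes passed (limma, adjusted p under 0.05), or 5 of 5 without Fgf21, whose difference followed from how it entered the test. Of all tested genes 17.6% passed, 8.38% upward and 9.26% downward. For Fgf10 the difference was 4.21 (SE 0.20, limma adjusted p = 2.15e-06), for Fgf7 2.10 (SE 0.27, adjusted p = 0.000726) and for Fgfr2 2.03 (SE 0.19, adjusted p = 0.000141). For Fgf21 it was -2.69 (SE 0.29, adjusted p = 0.000262) and for Fgfr1 -0.60 (SE 0.12, adjusted p = 0.00706). The difference for Fgf2, -1.29 (SE 0.33, limma adjusted p = 0.0247), was the least firm of the 6 in this fit, which leaves the replicate number out. It had an adjusted p from 0.0512 to 0.0636 when Vehicle replicate 3, TGFB1 replicate 1, TGFB1 replicate 2, Vehicle_Tgfbr2KO replicate 1 or TGFB1_KO replicate 2 was left out. Over all 20 alternative fits the limma adjusted p of this difference ran from 5.45e-05 to 0.0636.

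Between genotypes with vehicle alone, none of the 6 passed (limma; 1 had an unadjusted p under 0.05, Fgfr1), and 1.24% of all tested genes did, 0.522% higher and 0.72% lower. That share rests on 157 genes, a count that ran, as single libraries were left out, from 0 (Vehicle replicate 3 or Vehicle_Tgfbr2KO replicate 1) to 748 (TGFB1_KO replicate 3), so it is a weak reference. Log2 differences of Vehicle_Tgfbr2KO minus Vehicle were 0.38 for Fgf7, -0.13 for Fgf10, 0.24 for Fgf2, -0.02 for Fgf21 and 0.23 for Fgfr2. Fgfr1 was the only member whose groups did not overlap, at 54.4 to 64.6 FPKM in Vehicle_Tgfbr2KO against 73.9 to 78.9 FPKM in Vehicle, as did those of 30.3% of all tested genes. Its log2 difference of -0.31 (SE 0.08) missed the threshold with a limma adjusted p of 0.0924, and passed it at 0.0424 without TGFB1_KO replicate 3. With TGFB1 in both genotypes all 6 differed, 3 higher and 3 lower in TGFB1_KO and none with overlapping groups, or 5 of 5 without Fgf21. Of all tested genes 33.9% differed, 15.6% higher and 18.3% lower, and 45.4% had groups that did not overlap. Fgf10 was 24.6-fold higher in TGFB1_KO than in TGFB1 (log2 4.08, SE 0.14, limma adjusted p = 8.94e-08), Fgf7 5.86-fold and Fgfr2 5.79-fold higher. Fgf2 was 2.08-fold and Fgfr1 1.88-fold lower, and Fgf21 was lower by a log2 of -2.71. This comparison shares the TGFB1 libraries with the first, so its directions are no separate evidence.

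The tested genes whose profile over the 12 libraries was most like that of a member were found by the root mean square difference of log2(FPKM + 1), each gene centred on its Vehicle mean, among 9338 genes. The gene nearest to Fgf7 was Fgfr2, at 0.186, followed by Ephx1, the microsomal epoxide hydrolase gene, at 0.200 and Pi15, a peptidase inhibitor gene, at 0.247. For Fgfr2 the nearest were Pdlim2 (0.173), Fgf7 (0.186) and Ephx1 (0.192). The ligand and the receptor gene thus stood among the nearest neighbours of each other. No gene came as close to Fgf10: Igfbp5, which encodes an IGF-binding protein, was at 0.323, Rasl11a at 0.416 and Xdh, the xanthine dehydrogenase gene, at 0.422. Fgf2 was nearest to Snx30 (0.183), Unc5b (0.201) and Shroom4 (0.203). Fgf21 was nearest to Klhl30 (0.253), Ivns1abp (0.255) and Rph3a (0.268). The likeness is a description over the same libraries that gave the changes.

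The rest of the FGF family was nearly silent. Of 15 other FGF ligand genes, 14 stayed below the filter, at no more than 0.842 FPKM in any library. Fgf23, a phosphate-regulating hormone of bone, was tested and fell from 1.87 ± 0.506 to 0.682 ± 0.350 FPKM (SD, n = 3; log2 -0.78 with SE 0.24, limma adjusted p = 0.0307). That call was lost without Vehicle replicate 2 or 3 or without TGFB1 replicate 1 or 3, with an adjusted p of up to 0.107. Fgfr3 and Fgfr4, the other kinase receptors, reached at most 0.582 and 0.240 FPKM in any library.

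Co-receptors and FGF-binding proteins on the cell surface, by contrast, were expressed. Of 16 listed genes 9 were tested, and 5 rose and 1 fell in TGFB1 against Vehicle, with a median log2 change of 0.54 against 0.02 for all tested genes, of which 17.3% rose and 14.6% fell. Flrt2, a membrane protein whose family binds FGF receptors, rose from 5.75 ± 0.997 to 34.3 ± 1.48 FPKM (SD, n = 3; log2 2.40 with SE 0.14, limma adjusted p = 3.01e-06). Ncam1, a neural cell adhesion molecule that can engage FGFR1, rose from 25.8 ± 7.03 to 72.2 ± 7.54 FPKM (log2 1.48). Gpc1, a glypican that carries heparan sulphate, rose by a log2 of 0.93, and Fgfrl1, a receptor without a kinase domain, by 0.54. Sdc2, a syndecan, rose by 0.71, and Sdc4, another syndecan, fell from 68.5 ± 1.39 to 30.6 ± 5.52 FPKM (log2 -1.15). In Tgfbr2KO cells none of the 9 passed, and neither did any other tested gene (limma). An unadjusted p under 0.05 was found for 1 of the 9 and for 5.92% of all tested genes. The difference in TGFB1 change between genotypes passed for 5 of the 9, against 17.6% of all tested genes.

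Heparan sulphate enzymes set the chains on which FGFs dock. Of the 19 listed genes 15 were tested, and 7 rose and 3 fell (limma; median log2 0.21), beside 17.3% and 14.6% of all tested genes. Hs6st1, a 6-O-sulphotransferase, rose from 25.8 ± 3.99 to 79.4 ± 6.09 FPKM (SD, n = 3; log2 1.59, SE 0.13), and Glce, the epimerase of the chain, rose by a log2 of 1.21. Sulf1, an extracellular sulphatase that removes 6-O-sulphate, rose from 53.0 ± 13.0 to 101 ± 5.65 FPKM (log2 0.95). Hs3st1, a 3-O-sulphotransferase, fell from 7.00 ± 3.48 to 0.617 ± 0.196 FPKM (log2 -2.23 with SE 0.33, limma adjusted p = 0.000754). Sulf2, the other such sulphatase, fell from 31.3 ± 4.75 to 21.7 ± 0.377 FPKM (log2 -0.50, limma adjusted p = 0.0187), a call lost without Vehicle replicate 3 or TGFB1 replicate 3 (up to 0.0650). The pair of genes for removal of 6-O-sulphate thus changed in opposite directions. The number that fell was 1 without TGFB1 replicate 3 and 5 with the replicate number as a block.

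Genes of the signal chain below the receptor had log2 changes of at most 0.53 among those called. All 19 were tested, with 5 up and 2 down and a median log2 of 0.14, a count near the 31.9% called among all tested genes. Map2k1, the kinase that activates ERK, rose from 84.0 ± 3.73 to 122 ± 7.59 FPKM (SD, n = 3; log2 0.53, SE 0.07), and Plcg1, a phospholipase bound by the receptor, rose by 0.33. Nras had a log2 change of 0.27 and Braf of -0.26. The Nras call was lost without Vehicle replicate 1 or 3, without TGFB1 replicate 1 or 3 and with upper-quartile scaling (limma adjusted p of up to 0.114), and the Braf call without TGFB1 replicate 3 (0.0574). The number that rose was 2 without TGFB1 replicate 3, 3 without Vehicle replicate 1, 2 or 3 or TGFB1 replicate 2 and with upper-quartile scaling, and 8 when replicate number was a block. The number that fell was 0 without TGFB1 replicate 3, and 1 with median centring or without Vehicle replicate 1, 2 or 3, TGFB1 replicate 1 or 2 or Vehicle_Tgfbr2KO replicate 1.

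Target and feedback genes of the FGF-ERK path were split. Of 21 tested, 6 rose and 6 fell, with a median log2 change of -0.12, where 17.3% of all tested genes rose and 14.6% fell. Spry2, a Sprouty inhibitor, was 55.9 ± 0.542 FPKM in Vehicle and 22.2 ± 1.87 in TGFB1 (SD, n = 3) and fell (log2 -1.30, SE 0.09 and limma adjusted p = 9.38e-06). Etv1, an ETS factor that FGF signals induce, fell from 4.07 ± 0.393 to 0.884 ± 0.220 FPKM (log2 -1.43 with SE 0.15, limma adjusted p = 7.19e-05). Its relative Etv4 rose (log2 0.94), and Etv5, at 14.8 ± 0.991 and 15.8 ± 0.875 FPKM, did not pass. Dusp6, the phosphatase that switches off ERK, rose from 16.2 ± 2.86 to 33.0 ± 4.85 FPKM (log2 0.99). Dusp5 rose from 36.1 ± 7.94 to 88.2 ± 5.35 FPKM (log2 1.29), but not without Vehicle replicate 3 (limma adjusted p = 0.0505). Dusp4 had a log2 change of 1.30 with a limma adjusted p of 0.0420. That call was lost without Vehicle replicate 3, any TGFB1 replicate, Vehicle_Tgfbr2KO replicate 2 or TGFB1_KO replicate 2 (up to 0.137). The list thus holds a Sprouty gene that fell beside phosphatase genes that rose. The number that rose was 3 without Vehicle replicate 3 or TGFB1 replicate 3, and the number that fell was 3 without Vehicle replicate 2 or TGFB1 replicate 1.

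**Figure D4:**
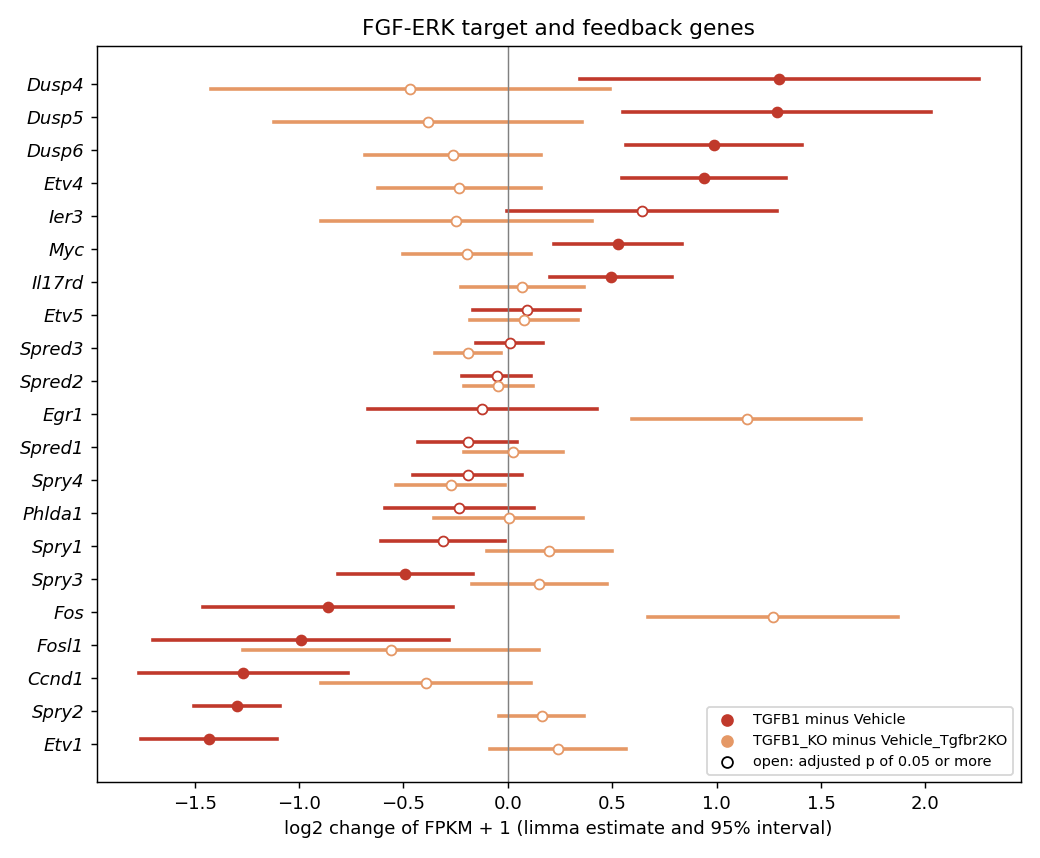
Log2 change of FPKM + 1 of the 21 FGF-ERK target and feedback genes (points, limma estimate; lines, 95% interval; filled, adjusted p under 0.05) in TGFB1 minus Vehicle and in TGFB1_KO minus Vehicle_Tgfbr2KO. In the first comparison 6 genes are filled on the right and 6 on the left, from Dusp4 at 1.30 to Etv1 at -1.43, and in the second none is filled.

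In Tgfbr2KO cells none of the 21 passed, and neither did any other tested gene (limma). An unadjusted p under 0.05 was found for 4 of the 21 and for 5.92% of all tested genes. The largest differences there were in the immediate early genes Fos, at 1.27, and Egr1, at 1.14, which were named after their values were seen. Fos was 5.83 ± 0.902 FPKM in Vehicle_Tgfbr2KO and 15.9 ± 5.65 in TGFB1_KO (SD, n = 3), without overlap, and its limma adjusted p was 0.643. The difference in TGFB1 change between genotypes passed for 8 of the 21, 4 in each direction, and for 17.6% of all tested genes.

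Fgf21 is a known target of ATF4, the factor of the integrated stress response, so other genes of that response were read. All 14 were tested, and 6 rose and 1 fell, with a median log2 change of 0.26 (17.3% and 14.6% of all tested genes did so). As single libraries were left out, the number that rose ran from 4 to 8 and the number that fell from 0 to 1. Whether ATF4 had a part in the change of Fgf21 was not tested. Psph, an enzyme of serine synthesis, rose from 34.3 ± 5.01 to 60.6 ± 4.49 FPKM (SD, n = 3; log2 0.81 with SE 0.10, limma adjusted p = 0.000253). Chac1, a glutathione-degrading enzyme, rose from 15.1 ± 2.71 to 27.0 ± 2.43 FPKM (log2 0.81), and the stress factor Atf3 from 1.84 ± 0.265 to 4.76 ± 1.34 FPKM (log2 1.00). Gdf15, like Fgf21 a stress hormone, went the other way, from 47.1 ± 16.7 to 23.8 ± 6.46 FPKM (log2 -0.92, limma adjusted p = 0.0401). This call was lost without Vehicle replicate 1 or 2, TGFB1 replicate 2 or 3, Vehicle_Tgfbr2KO replicate 2 or 3 or TGFB1_KO replicate 2, with an adjusted p of up to 0.142. Atf4 itself, controlled mainly at translation, was 175 ± 16.4 and 208 ± 14.3 FPKM and did not pass. The other stress genes that did not pass were Trib3 (log2 0.75, limma adjusted p = 0.0780), Atf5 (0.23), Ddit3 (0.15), Slc7a11 (0.10), Psat1 (-0.08) and Vldlr (-0.05). In Tgfbr2KO cells none of the 14 stress, 15 heparan sulphate or 19 signal genes passed, and neither did any other tested gene (limma). An unadjusted p under 0.05 was found for 2, 3 and 0 of them, and for 5.92% of all tested genes. The difference in TGFB1 change between genotypes passed upward for 0 stress, 2 heparan sulphate and 1 signal genes, and downward for 2, 3 and 3. Of all tested genes 8.38% passed upward and 9.26% downward. Set directly against TGFB1, TGFB1_KO had 1, 4 and 0 of these genes higher and 8, 7 and 7 lower, beside 15.6% and 18.3% of all. With vehicle in both genotypes, 1 stress gene was lower and no other of these genes passed, with median log2 differences of -0.28, -0.14 and -0.06.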

How the data were processed

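RNA of 12 libraries, 3 for each of 4 groups, was selected for polyadenylated transcripts and sequenced on an Illumina platform, per the labels' protocols. The authors deposited FPKM values for 25203 gene symbols, 4702 of them with no value above 0. The tools were kallisto 0.46.1 and DESeq2 1.40.1, and the build mm9, per the submitters' processing notes. How these gave the FPKM, how libraries were scaled and whether reads were counted by strand are not given in the sources used here. The build of the promoter sequences differs from mm9, so coordinates are those of the RefSeq promoters only. Absolute depth is unknown. Relative depth was read from the steps between low values.

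The members and gene lists were chosen with earlier results of these data known. FPKM was taken as log2(FPKM + 1). Genes that reached 1 FPKM in 3 or more of the 12 libraries were fitted (12641) with limma 3.58.1 in R 4.3.3, as 4 group means with a variance trend (8 residual degrees of freedom). P-values were adjusted over all fitted genes by Benjamini and Hochberg, two-sided, with a threshold of 0.05. The code was tested on simulated data. Single ratios and sums were compared by exact permutation, adjusted over 16 tests. Sequences and plots were handled in Python 3.11.15. The genes named were all 9 members, genes overlapping a member, Tgfbr2, up to 4 called genes with the largest change in each of 6 lists, and the 3 genes most like each member that changed by a log2 of at least 1. Further list and marker genes were named after their values were seen. These are the marker genes Pdgfra, Pdgfrb, Col1a1, Col1a2, Dcn, Lum, Thy1, Vim, Epcam, Krt8, Krt18, Krt19, Actg2, Cnn1, Myh11, Des and Synpo2. The list genes are Sulf2, Fgfr3, Fgfr4, Klb, Fgfrl1, Sdc2, Etv4, Etv5, Dusp6, Fos, Egr1, Atf4, Atf5, Ddit3, Trib3, Psat1, Slc7a11 and Vldlr.

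Replicates 1, 2 and 3 carry the numbers 31, 121 and 123 in every group, and the labels do not say what these stand for. Deviations of libraries sharing a number correlated across genes at 0.391, 0.445 and 0.408 between Vehicle and TGFB1. Between Vehicle_Tgfbr2KO and TGFB1_KO the correlations were 0.588, 0.227 and 0.529. The number was therefore taken to pair libraries in both TGFB1 comparisons, by the data and not by the labels. The estimates, SEs, intervals and p-values in the results come from the fit without the replicate number, so they leave this pairing out. Between genotypes the correlations for numbers 31, 121 and 123 were 0.336, -0.0867 and 0.412 with vehicle, and 0.337, 0.00945 and 0.276 with TGFB1. Because of number 121 the replicate number was not taken to pair libraries there, although libraries numbered 31 and 123 did correlate. The fit was repeated with the replicate number as a block, with a pseudocount of 0.5 or 0.1, without a filter or with 5 FPKM as its minimum, and with upper-quartile scaling, median centring, no variance trend, only the groups compared, or each library left out. The block with a fit on the groups compared was added after seeing the data.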

Additional observations from a re-analysis of the deposited data

Results flagged for a closer look

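The TGFB1 change of all 6 tested FGF genes differed between Tgfbr2KO cells and the other cells by the test of the difference itself (limma, adjusted over 12641 genes). For Fgf21 this followed from the filter, which it passed only through the TGFB1 libraries, and the count is 5 of 5 without it. The change in Tgfbr2KO cells minus that in the other cells was 4.21 for Fgf10, 2.10 for Fgf7 and 2.03 for Fgfr2, the genes that fell with TGFB1 in cells not labelled knockout. It was -2.69 for Fgf21, -1.29 for Fgf2 and -0.60 for Fgfr1, the genes that rose. Fgf2 had a limma adjusted p of 0.0247, which lay between 0.0512 and 0.0636 when 1 of 5 libraries was left out: Vehicle replicate 3, TGFB1 replicate 1, TGFB1 replicate 2, Vehicle_Tgfbr2KO replicate 1 or TGFB1_KO replicate 2. Its antisense neighbour Nudt6 gave -1.10 (SE 0.23, limma adjusted p = 0.00891) for the same difference. For Fgf21 it was -5.13 with a pseudocount of 0.1. Groups of 3 libraries are too small for a check of single libraries that lie far from the rest.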

How the results depend on the processing

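All 6 tested FGF genes kept their direction and their call in TGFB1 against Vehicle under every alternative that tested them, and 5 passed with the filter of 5 FPKM, which leaves out Fgf21. Leaving out each library in turn gave 6 to 6 called members in that comparison and 0 to 0 in the Tgfbr2KO cells. It gave 5 to 6 for the difference in TGFB1 change between genotypes and 6 to 6 between TGFB1_KO and TGFB1. Between genotypes with vehicle the count was 0, with a range of 0 to 1 over left-out libraries and 1 without TGFB1_KO replicate 3. With the replicate number as a block it was 2: Fgf2 higher (log2 0.24, limma adjusted p = 0.0324) and Fgfr1 lower (-0.31, adjusted p = 0.0361) in Vehicle_Tgfbr2KO; the cause was not tested. The block fitted on those groups alone called 0 of the members. The replicate block changed no other call among the 6. Over all genes, the block called 1897 genes between genotypes with vehicle against 157 without it. For the difference in TGFB1 change between genotypes it called 3658 against 2230. The vehicle count was also 748 without TGFB1_KO replicate 3, 0 on the groups compared alone, 71 with no filter and 90 with no variance trend, and 0 to 748 over all left-out libraries. In Tgfbr2KO cells a pseudocount of 0.1 called 1 gene, not a member, against 0. Of the values of single genes, 3 passed the threshold only under an alternative and 5 lost it, all 5 for Fgf2. Low levels limit what can be said of Fgf1, Fgf9 and Fgf18, and all values rest on 3 libraries a group.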
